A study of Mus musculus with 22 samples.

Results

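Integrins are the cell-surface receptors for extracellular matrix, and laminins are the heterotrimers that, with collagen IV, form the basement membrane. Their genes were taken as every row of the count tables whose symbol follows the integrin alpha, integrin beta or laminin chain pattern, which gave 38 rows of 48709, 27 for integrins and 11 for laminins, over 37 symbols because Itgam has 2 rows. The rows were measured by RNA-seq of mouse heart ventricles at E13.5 in 2 experiments. The first experiment compared ventricles labelled wild-type for Lin9 (LIN9 wt) with ventricles in which Lin9 was deleted (LIN9 KO), with 3 libraries each. The second held 3 libraries each of 4 genotypes, the LIN9 wt and SAV1 wt ventricles called control here, LIN9 KO with SAV1 wt, SAV1 KO with LIN9 wt, and the double KO of Lin9 and Sav1. LIN9 is a core subunit of the MuvB complex, which with B-MYB activates cell cycle genes, and SAV1 is the scaffold of the Hippo kinases that restrain the coactivator YAP. Deletion in the KO groups was by Nkx2.5-Cre, a recombinase expressed from the locus of a cardiac transcription factor, acting on floxed alleles (Lin9 fl/fl, Sav1 fl/fl) in cardiac precursors, so that cells outside that lineage keep both genes. The study describes Lin9 control animals as heterozygous carriers of Nkx2.5-Cre and one floxed allele (Lin9 fl/+), whereas the labels call them wild-type. The labels do not say that the libraries of a group came from separate embryos. For the Lin9 comparison the study speaks of 2 biological replicates, each in triplicate, and its methods of RNA isolated in triplicates. Each p-value here therefore measures the spread between libraries, which may be technical.

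Each integrin is a dimer of an alpha and a beta chain, and the pair sets the ligand. Itgb1 is shared by most matrix receptors, Itgav pairs with several beta chains that bind fibronectin and vitronectin, Itga3, Itga6 and Itga7 give laminin receptors, Itga1, Itga2, Itga10 and Itga11 give collagen receptors, Itgb2 and Itgb7 serve leukocytes, and Itga2b with Itgb3 forms the fibrinogen receptor of platelets. A laminin is built of an alpha, a beta and a gamma chain. In the developing heart, integrins and laminins link cardiomyocytes, endocardium and epicardium to the matrix, and integrin signals reach the actin cytoskeleton and YAP.

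The libraries of the first experiment held 9485599 to 9615274 counts and those of the second 2770741 to 2999877, so members with few reads were measured less precisely in the second. Lin9 counts were 29.8, 21.4 and 25.6 CPM (counts scaled to a common library size) in LIN9 wt and 21.4, 21.3 and 19.2 CPM in LIN9 KO of the first experiment, a log2 difference of -0.31 ± 0.14 (adjusted p = 0.13) in edgeR's quasi-likelihood test. In the second experiment the Lin9 difference was -0.80 ± 0.19 (adjusted p = 0.0027) in LIN9 KO against control and -0.16 ± 0.18 (adjusted p = 0.586) in double KO against SAV1 KO, where the groups overlapped. Sav1 differed by -0.50 ± 0.12 (adjusted p = 0.317) in SAV1 KO against control, by -0.23 ± 0.12 (adjusted p = 0.465) in double KO against LIN9 KO and by -0.44 ± 0.12 (adjusted p = 0.0087) in double KO against control. Whole-gene counts keep the exons outside the deleted ones, so these values check the labels only in part. Between LIN9 KO replicate 3 of the second experiment and the other 2 libraries of its group, chi-square per degree of freedom over all genes was 13.8 and 19.5, against 5.81 between those 2 and 1.20 to 4.74 among the controls. Cardiomyocyte markers, which check for heart muscle and do not tell ventricle from atrium, were abundant. Their 6 genes summed to 12054 to 13971 CPM in LIN9 wt and 5796 to 10408 CPM in LIN9 KO of the first experiment. Of them, 4 of 6 were called lower in each LIN9 comparison. Epicardial markers (6 genes) were called higher in 5 of 6, 5 of 6 and 5 of 6 in the first experiment, LIN9 KO against control and double KO against SAV1 KO, fibroblast and cushion mesenchyme markers in 5 of 6, 5 of 6 and 6 of 6, macrophage markers in 5 of 6, 4 of 6 and 5 of 6 and erythroid markers in 6 of 7, 7 of 7 and 7 of 7. Over all genes tested, 11.1%, 12.7% and 11.8% were called higher in these comparisons and 9.78%, 10.5% and 11.6% lower. In these bulk samples, fewer cells of a type and less RNA per cell cannot be told apart.

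**Figure D1:**
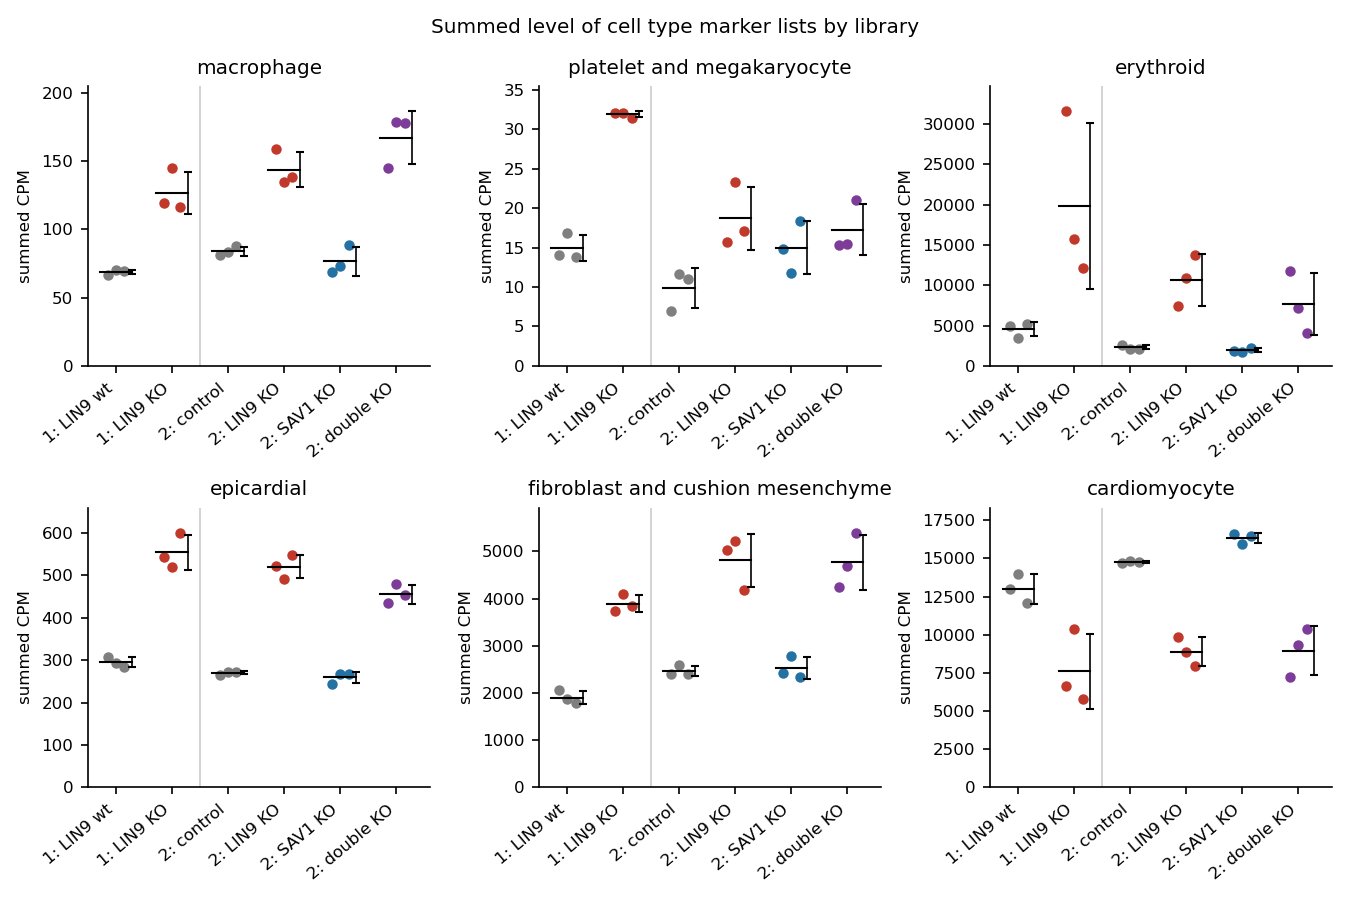
Summed CPM (linear axes, each starting at 0) of 6 marker lists in the 6 genotype groups, with points for libraries, lines for means and bars for 1 SD. Cardiomyocyte sums of the first experiment are lower in LIN9 KO (5796 to 10408 CPM) than in LIN9 wt (12054 to 13971 CPM), while macrophage sums are higher (117 to 145 against 66.8 to 70.2 CPM).

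In LIN9 wt and control ventricles the most abundant members were matrix-binding integrins and laminins, although both classes also held members as low as the leukocyte integrins, such as Itgb6, Itga7, Lama1 and Lamc3. Per kb of exon, Itgb1, the common beta chain of the matrix receptors, stood at 276 ± 9.31 CPM per kb in LIN9 wt (SD, n = 3) and 279 ± 3.72 in control, above every other member. It was followed by Lamc1, the gamma chain of most laminins, at 59.7 ± 13.1 and 68.9 ± 3.87 CPM per kb, and by Itga5, the fibronectin receptor chain, at 45.3 ± 3.53 and 51.0 ± 3.05 CPM per kb. Lamb1 (37.4 ± 5.03 and 42.9 ± 0.283 CPM per kb), Itgb5 (34.2 ± 4.23 and 38.2 ± 2.21), Lama4 (28.2 ± 5.30 and 34.3 ± 2.91) and Itga6 (27.8 ± 6.54 and 27.8 ± 0.984) came next in that order. In the first experiment Lamc1 overlapped Itga5, and Lamb1, Itgb5, Lama4, Itga6 and Lamb2 each overlapped the next, so the order among these neighbours was within the spread between libraries. Among the laminin alpha chains Lama4, of vascular and cardiac basement membranes, was the most abundant, with Lama5 at 7.72 ± 0.600 and 8.14 ± 0.841 CPM per kb and Lama2, the alpha chain of mature muscle, at 2.75 ± 0.517 and 3.90 ± 0.338. The 9 matrix-binding members Itgb1, Itga5, Itgb5, Itga6, Itgav, Itga3, Itga9, Itga1 and Itga8 ranked above every leukocyte and platelet integrin in both experiments. Itgb2, the common beta chain of leukocyte integrins, stood at 0.364 ± 0.108 and 0.222 ± 0.107 CPM per kb. The first Itgam row had no count in any of the 18 libraries. Another gene covers 68.7% of its exonic length, so that reads of Itgam may not have been assigned to it. The other Itgam row had 0 to 0.691 CPM and overlaps other exons over most of its length, so its few reads cannot be assigned to Itgam alone. Exons of other genes also cover 33.5% of the exonic length of Itga10 and 19.7% of Itgad, against 8.04% of Itga4 and 5.90% of Itgav. Neither a strand setting nor a rule for reads in overlaps is stated. Reads there may have been left uncounted or assigned to either gene.

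**Figure D2:**
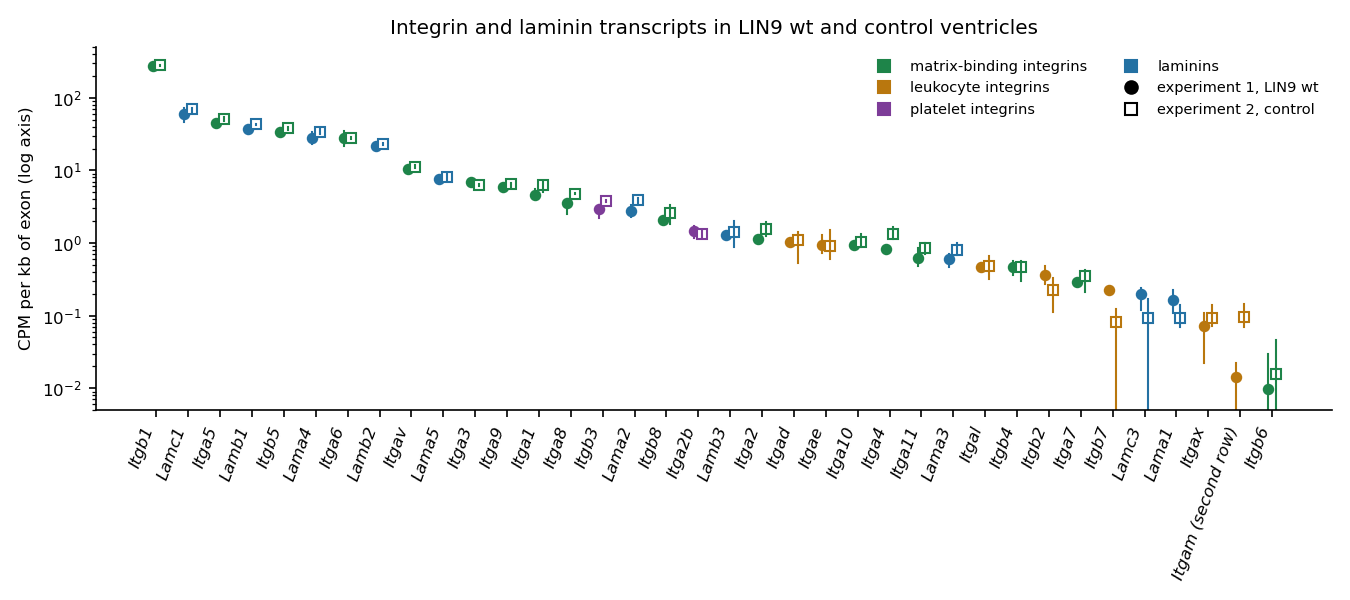
Mean and range over 3 libraries of CPM per kb of exon (log axis) of integrin and laminin rows in LIN9 wt of the first experiment (filled circles) and control of the second (open squares), coloured green for matrix-binding, orange for leukocyte and purple for platelet integrins and blue for laminins. Itgb1 is highest at 276 and 279 CPM per kb, and the means of all leukocyte integrins lie below those of Itgb8. A line that reaches the bottom of the axis stands for a library at 0.

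The comparisons of LIN9 KO with its LIN9 wt counterpart asked how deletion of Lin9 changes the ventricles, and 3 of them share no library. The 2 of the second experiment came from 1 fit of its 12 libraries and share its estimate of the spread, so their calls are not independent. More integrins were called higher than lower with loss of LIN9 in each of the 3, whereas laminins were called in both directions in the second experiment. In the first experiment 9 of 37 members tested (24.3%) were called higher and 1 (2.7%) lower at an adjusted p under 0.05, beside 11.1% higher and 9.78% lower of all genes tested. In LIN9 KO against control 16 of 36 (44.4%) were called higher and 2 (5.56%) lower, beside 12.7% and 10.5% of all genes. In double KO against SAV1 KO 14 of 36 (38.9%) were called higher and 2 (5.56%) lower, beside 11.8% and 11.6%. Without LIN9 KO replicate 3 of the second experiment, LIN9 KO against control gave 14 higher and 2 lower, and without control replicate 1 it gave 11 higher and 2 lower. Double KO against SAV1 KO gave 9 higher and 2 lower without SAV1 KO replicate 1 and 10 higher and 4 lower without double KO replicate 3. The first experiment gave 7 higher and 3 lower without LIN9 KO replicate 2. The share of members called higher was above the background in all 3, and the share called lower, which rests on 1 or 2 calls in each, was below it. By class, the matrix-binding integrins had 5 of 17, 8 of 17 and 11 of 17 called higher in these comparisons, in that order, the leukocyte integrins 2 of 7, 3 of 6 and 2 of 6, the platelet integrins 2 of 2, 1 of 2 and 0 of 2 and the laminins 0 of 11, 4 of 11 and 1 of 11. Called lower were 0, 0 and 1 of the matrix-binding integrins and 1, 2 and 1 of the laminins, and no leukocyte or platelet integrin. The median log2 fold change of the matrix-binding integrins was 0.58, 0.50 and 0.72, that of the laminins -0.061, 0.13 and 0.16, and that of all genes tested 0.016, 0.0083 and 0.032. Summed over the class, matrix-binding integrins were at 422 ± 13.8 in LIN9 wt and 528 ± 24.4 CPM per kb in LIN9 KO of the first experiment (SD, n = 3) and stood at 439.6 ± 4.06 in control, 565 ± 48.8 in LIN9 KO, 411 ± 8.01 in SAV1 KO and 562 ± 8.59 in double KO. Itgb1 alone gave 276 and 332 CPM per kb of these sums in the first experiment. In the second it gave 279, 316, 264 and 332 CPM per kb in the same order of groups. Laminin sums were 163 ± 26.0 and 153 ± 35.1 CPM per kb in the first experiment and 188 ± 6.24, 192 ± 25.1, 204 ± 6.42 and 190.3 ± 45.5 in the same 4 groups, with overlap between LIN9 wt and LIN9 KO libraries in both experiments. Of the 38 rows, 23 were called in at least 1 of the 3 comparisons and 15 in none. Called higher in all 3 were Itgav, Itgb5, Itga4 and Itga8 of the matrix-binding class and Itgal and Itgb2 of the leukocyte class. That a member passed in a comparison and not in another was not tested as a difference, except by the interaction within the second experiment, which no member passed. Long genes differed slightly from short ones, since genes with over 6 kb of exon had a median log2 fold change 0.016, 0.073 and 0.20 above genes under 2 kb in these comparisons, and 23 tested members are over 6 kb.

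**Figure D3:**
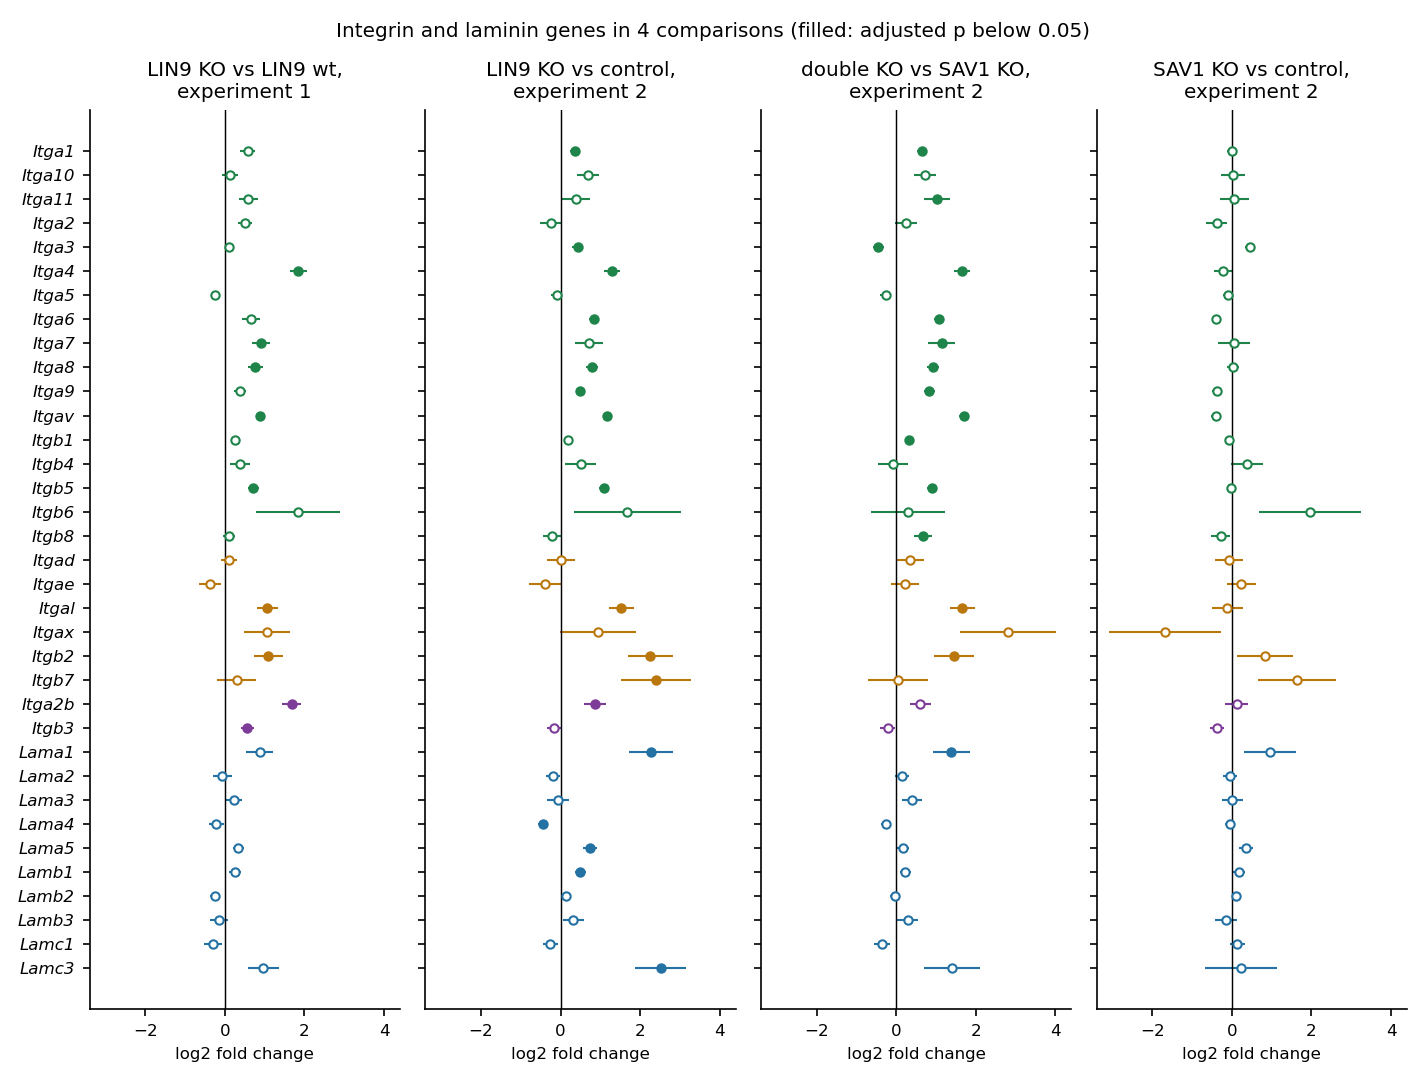
Log2 fold change with its standard error of members tested in all comparisons, in the first experiment, LIN9 KO against control, double KO against SAV1 KO and SAV1 KO against control, with filled points for an adjusted p under 0.05 in edgeR's quasi-likelihood test. Filled points lie mostly to the right in the 3 LIN9 panels, with 9, 16 and 14 members higher, Lama4 lies to the left in LIN9 KO against control and Itga3 in double KO against SAV1 KO, and the SAV1 panel has none.

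The 4 matrix-binding integrins that rose in all 3 LIN9 comparisons are the vitronectin and fibronectin receptor chains Itgav (chr2:83724397-83806916, plus strand, GRCm38) and Itgb5 (chr16:33829665-33949338, plus strand), the VCAM1 and fibronectin receptor chain Itga4 (chr2:79255426-79333123, plus strand) and the nephronectin receptor chain Itga8 (chr2:12106632-12301922, minus strand). The 250 bases before their RefSeq start (GRCm38.p6, read 5′ to 3′ on the gene's strand) are printed because these members moved together, with GC boxes (GGGCGG, both strands) and the TTCGAA variant of the CHR, the element bound by MuvB, in capitals.
Itgav promoter, chr2:83724147-83724396, plus strand: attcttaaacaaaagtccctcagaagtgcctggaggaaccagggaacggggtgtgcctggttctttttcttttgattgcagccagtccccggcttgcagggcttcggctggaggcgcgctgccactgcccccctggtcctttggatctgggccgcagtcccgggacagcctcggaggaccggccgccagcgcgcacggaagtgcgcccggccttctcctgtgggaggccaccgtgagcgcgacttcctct
Itgb5 promoter, chr16:33829415-33829664, plus strand: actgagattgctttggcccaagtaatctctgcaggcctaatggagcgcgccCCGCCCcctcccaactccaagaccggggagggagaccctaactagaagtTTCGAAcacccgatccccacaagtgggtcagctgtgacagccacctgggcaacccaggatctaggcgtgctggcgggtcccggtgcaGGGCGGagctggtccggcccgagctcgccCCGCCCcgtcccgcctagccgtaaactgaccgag
Itga4 promoter, chr2:79255176-79255425, plus strand: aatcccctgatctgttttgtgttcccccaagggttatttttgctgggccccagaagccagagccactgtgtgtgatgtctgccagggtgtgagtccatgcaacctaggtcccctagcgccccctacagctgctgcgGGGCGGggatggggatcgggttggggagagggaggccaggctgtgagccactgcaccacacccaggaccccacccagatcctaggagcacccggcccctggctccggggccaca
Itga8 promoter, chr2:12301945-12302194, minus strand: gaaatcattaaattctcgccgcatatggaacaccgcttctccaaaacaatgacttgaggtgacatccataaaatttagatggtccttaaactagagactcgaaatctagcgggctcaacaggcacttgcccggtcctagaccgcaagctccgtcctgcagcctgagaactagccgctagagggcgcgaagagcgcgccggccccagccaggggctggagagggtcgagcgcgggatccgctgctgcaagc

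The Itgb5 window holds TTCGAA from 150 to 145 bases before the start, a palindrome found in 1.34% of all 32851 promoter windows of this length, and GGGCGG, counted on either strand, at 3 places. The Itga4 window holds GGGCGG from 114 to 109 bases before the start, and this motif was in 32.7% of all windows. All motifs were counted on both strands. The canonical CHR, TTTGAA, was in none of the 4 windows and in 16% of all windows. The TEAD motif GGAATG was likewise in none of the 4, against 12.6% of all. The same held for the CCAAT box, which 33.8% of all windows hold. Over all 26 windows of the 23 member symbols in the RefSeq table, the canonical CHR was in 2 (Itga1 and Itga10), the TEAD motif in 3 (Itga10, Itgb1 and Lamb3), the CCAAT box in 4 and the GC box in 9.

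Itgav was at 117, 115 and 102 CPM in the LIN9 wt and 211, 224 and 182 CPM in the LIN9 KO libraries of the first experiment. Its levels in the second experiment were 116, 118 and 128 CPM in the control, 309, 287 and 221 CPM in the LIN9 KO, 84.4, 93.8 and 94.4 CPM in the SAV1 KO and 277, 313 and 298 CPM in the double KO libraries. Every LIN9 KO or double KO library lay above every library with LIN9 wt, while the SAV1 KO libraries lay below the controls. Itgav rose by 0.89 ± 0.11 in the first experiment (adjusted p = 5.7e-05). The rise of Itgav was 1.17 ± 0.11 in LIN9 KO against control (adjusted p = 5.7e-09) and 1.70 ± 0.11 in double KO against SAV1 KO (adjusted p = 9.2e-12), the latter a 3.25-fold difference. Itgb5, which pairs with Itgav, was at 123, 136 and 106 CPM in the LIN9 wt and 165, 236 and 197 CPM in the LIN9 KO libraries of the first experiment. In the second experiment Itgb5 was at 127, 143 and 137 CPM in the control, 322, 283 and 263 CPM in the LIN9 KO, 139.9, 141 and 122 CPM in the SAV1 KO and 197, 267 and 287 CPM in the double KO libraries. Again the groups with and without LIN9 did not overlap, and the SAV1 KO libraries overlapped the controls. Itgb5 rose by 0.71 ± 0.14 in the first experiment (adjusted p = 0.0017). The rise of Itgb5 was 1.09 ± 0.12 in LIN9 KO against control (adjusted p = 8.9e-08) and 0.90 ± 0.12 in double KO against SAV1 KO (adjusted p = 2.1e-06). The calls for both genes held without any 1 library and in every alternative.

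Itga4, an alpha chain of epicardial and blood cells, had the largest difference among the matrix-binding integrins called in the first experiment. Its levels were 12.6, 12.2 and 9.76 CPM in the LIN9 wt and 43.1, 52.9 and 28.6 CPM in the LIN9 KO libraries of the first experiment. In the second experiment Itga4 was at 15.9, 23.3 and 15.9 CPM in the control, 34.5, 53.1 and 47.7 CPM in the LIN9 KO, 17.2, 14.5 and 15.7 CPM in the SAV1 KO and 36.8, 53.8 and 58.7 CPM in the double KO libraries. No LIN9 KO or double KO library overlapped its LIN9 wt counterparts, although the KO libraries themselves ranged from 28.6 to 52.9 CPM in the first experiment. Itga4 rose by 1.85 ± 0.21 in the first experiment (adjusted p = 0.00017). The rise of Itga4 was 1.29 ± 0.20 in LIN9 KO against control (adjusted p = 4.4e-05) and 1.65 ± 0.20 in double KO against SAV1 KO (adjusted p = 2.5e-06). Itga8 was at 29.9, 29.9 and 18.7 CPM in the LIN9 wt and 45.1, 51.9 and 36.6 CPM in the LIN9 KO libraries of the first experiment. For Itga8, the second experiment gave 35.5, 35.3 and 35.3 CPM in the control, 55.2, 53.8 and 75.3 CPM in the LIN9 KO, 37.7, 41.2 and 29.3 CPM in the SAV1 KO and 56.2, 78.5 and 71.8 CPM in the double KO libraries. Its groups did not overlap in any of the 3 comparisons, with a lower LIN9 wt value in replicate 3 of the first experiment. Itga8 rose by 0.77 ± 0.18 in the first experiment (adjusted p = 0.0125). The rise of Itga8 was 0.79 ± 0.15 in LIN9 KO against control (adjusted p = 0.00029) and 0.93 ± 0.15 in double KO against SAV1 KO (adjusted p = 3.6e-05). The calls of Itga4 and Itga8 likewise held in every alternative and with any 1 library left out. Epicardial markers summed to 283 to 306 in LIN9 wt and 519 to 599 in LIN9 KO of the first experiment, and 265 to 273 in control, 492 to 547 in LIN9 KO, 244 to 267 in SAV1 KO and 433 to 478 in double KO of the second (CPM), and fibroblast and cushion mesenchyme markers to 1792 to 2059 in LIN9 wt and 3744 to 4102 in LIN9 KO of the first experiment, and 2396 to 2588 in control, 4176 to 5216 in LIN9 KO, 2346 to 2785 in SAV1 KO and 4238 to 5391 in double KO of the second. Both lists were higher in LIN9 KO together with these 4 integrins. Macrophage sums were also higher in LIN9 KO of the first experiment (117 to 145 against 66.8 to 70.2 CPM). Erythroid sums there were 3530 to 5170 CPM in LIN9 wt and 12128 to 31576 CPM in LIN9 KO. In the second experiment they were 2155 to 2643 CPM in control and 7423 to 13802 CPM in LIN9 KO. SAV1 KO had 1762 to 2275 CPM and double KO 4053 to 11729 CPM. The part of these marker lists in the integrin differences was not tested.

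**Figure D4:**
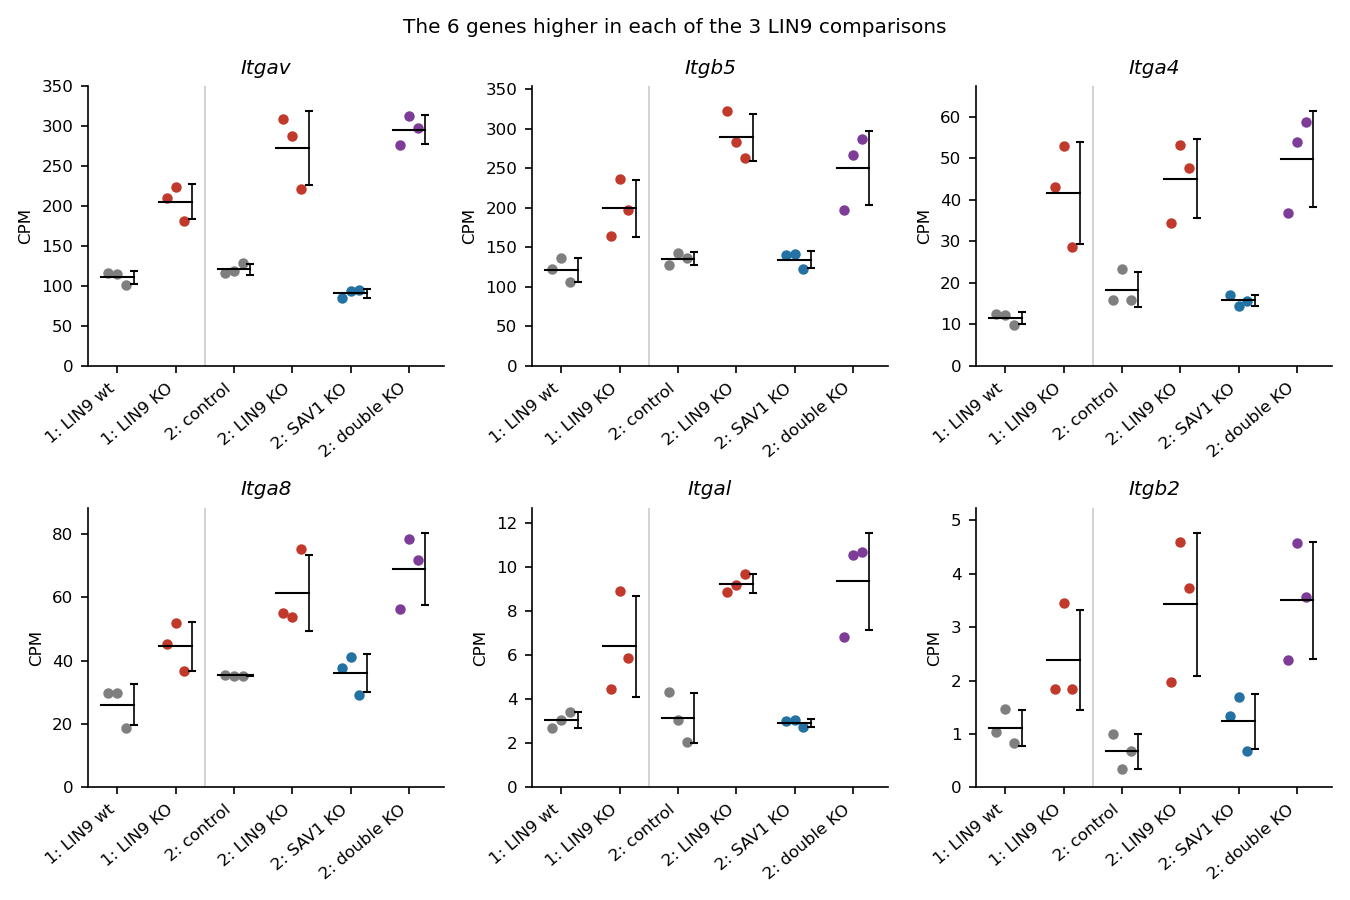
CPM per library (linear axes) of the 6 integrins called higher in all 3 LIN9 comparisons, Itgav, Itgb5, Itga4, Itga8, Itgal and Itgb2, in the 6 genotype groups, with points for libraries, lines for means and bars for 1 SD. Itgav libraries lie at 102 to 128 CPM in LIN9 wt and control, 84.4 to 94.4 CPM in SAV1 KO and 182 to 313 CPM in LIN9 KO and double KO, and the Itgb2 panel spans only 0.342 to 4.59 CPM.

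Of the laminin receptor chains, Itga6 was higher with loss of LIN9 in the second experiment and Itga7 in 2 of the 3 comparisons, while Itga3 was called in both directions. Itga6, which forms laminin receptors with Itgb1 or Itgb4, was at 249, 312 and 194 CPM in the LIN9 wt and 379, 511 and 293 CPM in the LIN9 KO libraries of the first experiment. In the second experiment Itga6 was at 256, 256 and 241 CPM in the control, 525, 405 and 417 CPM in the LIN9 KO, 194, 175 and 203 CPM in the SAV1 KO and 332, 409 and 466 CPM in the double KO libraries, and groups with and without LIN9 did not overlap there. Its log2 fold change was 0.65 ± 0.23 (adjusted p = 0.0838) in the first experiment. The Itga6 values of the second were 0.84 ± 0.12 (adjusted p = 3.7e-06) in LIN9 KO against control and 1.08 ± 0.12 (adjusted p = 9.5e-08) in double KO against SAV1 KO, the latter 2 past the threshold. Itga6 passed the threshold in the first experiment without LIN9 KO replicate 3 and LIN9 wt replicate 2, each left out in turn (adjusted p = 0.0179 and 0.0275). DESeq2 (adjusted p = 0.0044) and the replicate block (adjusted p = 1e-05) also called Itga6 in the first experiment. Itga7, the laminin receptor chain of muscle, was low, at 2.37, 2.42 and 2.18 CPM in the LIN9 wt and 4.23, 4.51 and 4.42 CPM in the LIN9 KO libraries of the first experiment. For Itga7, the second experiment gave 3.32, 3.42 and 1.73 CPM in the control, 4.92, 4.92 and 4.10 CPM in the LIN9 KO, 2.35, 3.04 and 3.41 CPM in the SAV1 KO and 5.11, 7.74 and 6.76 CPM in the double KO libraries. The Itga7 log2 fold change was 0.91 ± 0.22 (adjusted p = 0.0084) in the first experiment. The Itga7 values of the second were 0.71 ± 0.36 (adjusted p = 0.167) in LIN9 KO against control and 1.14 ± 0.34 (adjusted p = 0.0134) in double KO against SAV1 KO, called higher in the first and the last. The Itga7 call in double KO against SAV1 KO was lost without double KO replicate 2 and SAV1 KO replicate 1, each left out in turn (adjusted p = 0.0812 and 0.0668). DESeq2 gave Itga7 an adjusted p of 0.0654 in the last.

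Itga3, a laminin receptor chain of epithelia, was at 39.5, 39.9 and 39.5 CPM in the LIN9 wt and 41.6, 38.5 and 47.7 CPM in the LIN9 KO libraries of the first experiment, with overlap. In the second experiment Itga3 was at 35.5, 34.9 and 36.6 CPM in the control, 50.9, 51.1 and 41.7 CPM in the LIN9 KO, 50.4, 48.9 and 48.1 CPM in the SAV1 KO and 31.3, 35.9 and 40.9 CPM in the double KO libraries. The LIN9 KO and SAV1 KO libraries all lay above the controls, and the double KO libraries all lay below the SAV1 KO libraries. Its log2 fold change was 0.10 ± 0.11 (adjusted p = 0.566) in the first experiment. The Itga3 values of the second were 0.43 ± 0.13 (adjusted p = 0.0175) in LIN9 KO against control and -0.45 ± 0.13 (adjusted p = 0.0127) in double KO against SAV1 KO, thus higher in LIN9 KO and lower in double KO. The difference between these 2 effects of LIN9, the interaction, was -0.88 ± 0.19 (adjusted p = 0.44) in edgeR's quasi-likelihood test and so was not called over all genes. The Itga3 interaction passed in edgeR's quasi-likelihood test without the filter on low counts (adjusted p = 0.0309), and without LIN9 KO replicate 3 (adjusted p = 0.0121). The Itga3 call in LIN9 KO against control was lost without LIN9 KO replicates 1 and 2 and control replicates 1 and 2, each left out in turn (adjusted p = 0.0634, 0.109, 0.0504 and 0.0827). The Itga3 call in LIN9 KO against control also missed the threshold in DESeq2 (adjusted p = 0.0663) and in a fit of the 6 libraries alone (adjusted p = 0.0536). Itgb4, the beta chain of hemidesmosomes, stayed between 2.07 and 6.41 CPM over the 18 libraries and was called in no comparison.

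Of the collagen receptor chains, Itga1 was called higher in both LIN9 comparisons of the second experiment and Itga11 in the double KO. Itga1, a receptor for basement membrane collagen, was at 104, 76.3 and 77.3 CPM in the LIN9 wt and 144, 147 and 92.1 CPM in the LIN9 KO libraries of the first experiment. For Itga1, the second experiment gave 93.7, 135 and 121 CPM in the control, 124, 162 and 161 CPM in the LIN9 KO, 114, 117 and 119 CPM in the SAV1 KO and 182, 206 and 163 CPM in the double KO libraries. LIN9 KO replicate 1 of the second experiment lay below the highest control, whereas double KO lay above every SAV1 KO library. Its log2 fold change was 0.58 ± 0.19 (adjusted p = 0.0644) in the first experiment. The Itga1 values of the second were 0.36 ± 0.13 (adjusted p = 0.0405) in LIN9 KO against control and 0.65 ± 0.12 (adjusted p = 0.00035) in double KO against SAV1 KO. Itga1 passed the threshold in the first experiment without LIN9 KO replicate 3 and LIN9 wt replicate 1, each left out in turn (adjusted p = 9.2e-05 and 0.0208). The Itga1 call in LIN9 KO against control was lost without any 1 of 10 of the 12 libraries, all but control replicate 2 and LIN9 KO replicate 1 (adjusted p = 0.0535 to 0.276). DESeq2 gave Itga1 an adjusted p of 0.0082 in the first experiment and 0.0871 in LIN9 KO against control. Itga11, a receptor of fibroblasts for fibrillar collagen, was at 2.68, 4.32 and 2.49 CPM in the LIN9 wt and 4.34, 4.72 and 5.24 CPM in the LIN9 KO libraries of the first experiment. For Itga11, the second experiment gave 3.65, 4.45 and 5.18 CPM in the control, 3.28, 5.24 and 9.31 CPM in the LIN9 KO, 5.04, 3.71 and 5.11 CPM in the SAV1 KO and 8.17, 8.09 and 12.1 CPM in the double KO libraries. Double KO and SAV1 KO did not overlap, and Itga11 rose by 1.02 ± 0.32 (adjusted p = 0.0194) there. The Itga11 call in double KO against SAV1 KO was lost without double KO replicate 3 and SAV1 KO replicate 2, each left out in turn (adjusted p = 0.121 and 0.0907). Itga11 passed the threshold in the first experiment without LIN9 wt replicate 2 (adjusted p = 0.0316). DESeq2 gave Itga11 an adjusted p of 0.0627. Itga2 and Itga10, the other collagen receptor chains, were called in none, with log2 fold changes of 0.50, -0.25 and 0.24 for Itga2 and 0.14, 0.70 and 0.72 for Itga10 in the same order of comparisons. Itga2 passed the threshold in the first experiment without LIN9 KO replicate 3 (adjusted p = 0.0086). Itga10 passed the threshold in double KO against SAV1 KO without SAV1 KO replicate 2 (adjusted p = 0.0343).

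Itgb1, the most abundant member, moved little. Its levels were 1164, 1088 and 1132 CPM in the LIN9 wt and 1356, 1332 and 1382 CPM in the LIN9 KO libraries of the first experiment. For Itgb1, the second experiment gave 1128, 1137 and 1157 CPM in the control, 1388, 1259 and 1220.5 CPM in the LIN9 KO, 1039, 1117 and 1075 CPM in the SAV1 KO and 1443, 1333 and 1288 CPM in the double KO libraries. The LIN9 KO libraries lay above the LIN9 wt libraries in each comparison, but the log2 fold change was 0.27 ± 0.12 (adjusted p = 0.136) in the first experiment. The Itgb1 values of the second were 0.18 ± 0.093 (adjusted p = 0.185) in LIN9 KO against control and 0.33 ± 0.093 (adjusted p = 0.0092) in double KO against SAV1 KO, past the threshold in the last. The Itgb1 call in double KO against SAV1 KO was lost without double KO replicate 1 and SAV1 KO replicate 1, each left out in turn (adjusted p = 0.0645 and 0.0504). DESeq2 (adjusted p = 0.0361) and the replicate block (adjusted p = 0.0471) called Itgb1 in the first experiment too. Itga5, the classical fibronectin receptor chain, was at 214, 244 and 213 CPM in the LIN9 wt and 181, 210.0 and 176 CPM in the LIN9 KO libraries of the first experiment. For Itga5, the second experiment gave 267, 249.9 and 237 CPM in the control, 293, 235 and 175 CPM in the LIN9 KO, 253, 225 and 228 CPM in the SAV1 KO and 186, 196 and 204 CPM in the double KO libraries. It was called in none of the 3, at -0.24 ± 0.11 (adjusted p = 0.142) in the first experiment. The Itga5 values of the second were -0.10 ± 0.13 (adjusted p = 0.642) in LIN9 KO against control and -0.27 ± 0.13 (adjusted p = 0.141) in double KO against SAV1 KO. Itga5 passed the threshold in LIN9 KO against control without LIN9 KO replicate 1 (adjusted p = 0.0362). Itga5 passed the threshold in double KO against SAV1 KO without LIN9 KO replicates 1 and 3, each left out in turn (adjusted p = 0.0379 and 0.0322). A fit of the 6 libraries alone also called Itga5 there (adjusted p = 0.0249). Without LIN9 KO replicate 3 of the second experiment, the Itga5 difference in LIN9 KO against control turned to 0.043. Itga9, a receptor chain for tenascin and VCAM1, was at 49.2, 49.2 and 38.3 CPM in the LIN9 wt and 49.0, 74.5 and 53.7 CPM in the LIN9 KO libraries of the first experiment. For Itga9, the second experiment gave 51.2, 51.7 and 46.0 CPM in the control, 76.5, 70.5 and 63.3 CPM in the LIN9 KO, 41.7, 36.4 and 36.8 CPM in the SAV1 KO and 57.9, 74.6 and 72.9 CPM in the double KO libraries. The groups with and without LIN9 did not overlap in the second experiment, and Itga9 rose there by 0.50 ± 0.12 (adjusted p = 0.0033) in LIN9 KO against control and by 0.84 ± 0.13 (adjusted p = 1.4e-05) in double KO against SAV1 KO, against 0.37 ± 0.16 (adjusted p = 0.117) in the first experiment. Itga9 passed the threshold in the first experiment without LIN9 KO replicate 1 (adjusted p = 0.044). Itgb8, whose dimer with Itgav activates TGF-beta, rose by 0.68 ± 0.23 (adjusted p = 0.0424) in double KO against SAV1 KO, where the groups did not overlap. Its levels were 25.0, 23.7 and 20.9 CPM in the LIN9 wt and 28.5, 26.4 and 20.0 CPM in the LIN9 KO libraries of the first experiment. For Itgb8, the second experiment gave 20.3, 29.1 and 36.6 CPM in the control, 14.8, 27.5 and 32.0 CPM in the LIN9 KO, 22.5, 23.3 and 24.9 CPM in the SAV1 KO and 40.9, 35.2 and 37.0 CPM in the double KO libraries. The Itgb8 call in double KO against SAV1 KO was lost without any 1 of 8 of the 12 libraries, all but control replicates 1 and 3 and LIN9 KO replicates 1 and 3 (adjusted p = 0.061 to 0.14). Itgb6, another TGF-beta activating chain of epithelia, stayed at or under 1.35 CPM in every library and was called in none.

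The leukocyte integrins were low in every group, and Itgal and Itgb2, which together form the lymphocyte function antigen, were higher in LIN9 KO. Itgal (chr7:127296260-127335138, plus strand) was at 2.68, 3.06 and 3.43 CPM in the LIN9 wt and 4.44, 8.91 and 5.86 CPM in the LIN9 KO libraries of the first experiment. For Itgal, the second experiment gave 4.32, 3.08 and 2.07 CPM in the control, 8.86, 9.18 and 9.69 CPM in the LIN9 KO, 3.03, 3.04 and 2.73 CPM in the SAV1 KO and 6.81, 10.6 and 10.7 CPM in the double KO libraries. Its groups did not overlap in any LIN9 comparison. Itgal rose by 1.07 ± 0.26 in the first experiment (adjusted p = 0.0085). The rise of Itgal was 1.53 ± 0.31 in LIN9 KO against control (adjusted p = 0.00047) and 1.66 ± 0.31 in double KO against SAV1 KO (adjusted p = 0.00024). The Itgal call in the first experiment was lost without LIN9 wt replicate 1 (adjusted p = 0.0509). Itgb2 (chr10:77530252-77565708, plus strand) was at 1.03, 1.48 and 0.831 CPM in the LIN9 wt and 1.84, 3.46 and 1.85 CPM in the LIN9 KO libraries of the first experiment, which are 10, 14 and 8 and 17, 33 and 18 reads. In the second experiment Itgb2 had 3, 1 and 2 reads in control, 6, 14 and 10 in LIN9 KO, 4, 5 and 2 in SAV1 KO and 7, 13 and 10 in double KO. These small counts did not overlap between groups with and without LIN9. Itgb2 rose by 1.09 ± 0.36 in the first experiment (adjusted p = 0.0418). The rise of Itgb2 was 2.26 ± 0.57 in LIN9 KO against control (adjusted p = 0.0041) and 1.46 ± 0.50 in double KO against SAV1 KO (adjusted p = 0.0338). The Itgb2 call in the first experiment was lost without LIN9 KO replicate 2 and LIN9 wt replicates 1, 2 and 3, each left out in turn (adjusted p = 0.215, 0.126, 0.0509 and 0.153). The Itgb2 call in double KO against SAV1 KO was lost without double KO replicates 2 and 3 and SAV1 KO replicates 1 and 3, each left out in turn (adjusted p = 0.162, 0.0722, 0.0771 and 0.141). DESeq2 did not call Itgb2 in the first experiment (adjusted p = 0.0981) or in double KO against SAV1 KO (adjusted p = 0.112).

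Itgb7, the beta chain of gut-homing integrins, had 6, 6 and 6 reads in LIN9 wt and 3, 9 and 10 in LIN9 KO of the first experiment, and 1, 1 and 0 in control, 5, 2 and 5 in LIN9 KO, 3, 2 and 2 in SAV1 KO and 3, 1 and 3 in double KO. It was called higher in LIN9 KO against control, at 2.39 ± 0.88 (adjusted p = 0.0485), on these few reads. The ratio of its pooled reads, 12 in LIN9 KO to 2 in control, was 6.03 with an exact 95% interval of 1.34 to 55.5 that covers counting error only. That Itgb7 call was lost with the replicate number as a block (adjusted p = 0.0534) and without any 1 of 11 of the 12 libraries, all but LIN9 KO replicate 2 (adjusted p = 0.0531 to 0.168). It was also lost with no filter (adjusted p = 0.0739) and in a fit of the 6 libraries alone (adjusted p = 0.0857). Upper-quartile normalization (adjusted p = 0.05) and DESeq2 did not call it either, so that it held in 2 of 18 alternatives. Itgad, Itgae, Itgax and the second Itgam row were called in none, with log2 fold changes in the first experiment of 0.10, -0.38 and 1.06 for the former 3. The second Itgam row held 1, 1 and 0 reads in LIN9 wt and 5, 2 and 3 in LIN9 KO of the first experiment. Of the lists of blood cell markers, macrophage and granulocyte sums were higher in the LIN9 KO and double KO libraries. The lymphocyte and pan-leukocyte sums overlapped between LIN9 KO and control, where 0 of the 2 genes tested were called. Macrophage markers (6 genes) summed to 66.8 to 70.2 in LIN9 wt and 117 to 145 in LIN9 KO of the first experiment, and 81.1 to 87.8 in control, 135 to 159 in LIN9 KO, 68.6 to 88.3 in SAV1 KO and 145 to 178 in double KO of the second (CPM), and 5 of 6, 4 of 6 and 5 of 6 were called higher in the 3 LIN9 comparisons. Granulocyte markers had 2 of 4, 3 of 3 and 2 of 3 called higher, beside 11.1%, 12.7% and 11.8% of all genes tested. Ly6g was at 0 in every library but 1 LIN9 wt library of the first experiment, which held 1 read. Of the lymphocyte and pan-leukocyte list, Cd3e and Rag1 were at 0 throughout. That list summed to 1.48 to 2.60 in LIN9 wt and 3.04 to 4.61 in LIN9 KO of the first experiment, and 3.65 to 5.14 in control, 4.92 to 7.08 in LIN9 KO, 2.02 to 3.07 in SAV1 KO and 6.04 to 16.2 in double KO of the second (CPM). Its pan-leukocyte gene Ptprc rose by 1.03 ± 0.32 (adjusted p = 0.0324) in the first experiment and by 2.06 ± 0.38 (adjusted p = 0.0002) in double KO against SAV1 KO, with 0.49 ± 0.39 (adjusted p = 0.424) in LIN9 KO against control. Macrophage sums, like Itgal, did not overlap between groups with and without LIN9, and the part of macrophage and other leukocyte content in the Itgal and Itgb2 differences was not tested.

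The platelet integrins rose in the first experiment, and in the LIN9 comparisons of the second Itga2b was called in LIN9 KO against control and Itgb3 in neither. Itga2b, the alpha chain of the platelet fibrinogen receptor, was at 9.37, 8.33 and 6.34 CPM in the LIN9 wt and 30.0, 29.8 and 17.1 CPM in the LIN9 KO libraries of the first experiment. For Itga2b, the second experiment gave 6.64, 8.22 and 6.57 CPM in the control, 11.5, 14.7 and 13.0 CPM in the LIN9 KO, 7.73, 5.40 and 10.2 CPM in the SAV1 KO and 12.9, 7.39 and 15.3 CPM in the double KO libraries. Its KO libraries lay above the LIN9 wt libraries in the first experiment and in LIN9 KO against control, and overlapped SAV1 KO in the double KO. Its log2 fold change was 1.67 ± 0.23 (adjusted p = 0.00032) in the first experiment. The Itga2b values of the second were 0.87 ± 0.27 (adjusted p = 0.0186) in LIN9 KO against control and 0.61 ± 0.27 (adjusted p = 0.107) in double KO against SAV1 KO. The Itga2b call in LIN9 KO against control was lost without LIN9 KO replicate 2 and control replicates 1 and 3, each left out in turn (adjusted p = 0.0986, 0.0651 and 0.0701). Itga2b passed the threshold in double KO against SAV1 KO without double KO replicate 2 (adjusted p = 0.0313). DESeq2 gave Itga2b an adjusted p of 0.0553 in LIN9 KO against control. Itgb3, its partner, which also pairs with Itgav on endothelium, was at 19.9, 19.3 and 13.1 CPM in the LIN9 wt and 23.0, 29.5 and 24.7 CPM in the LIN9 KO libraries of the first experiment. For Itgb3, the second experiment gave 21.6, 23.3 and 21.8 CPM in the control, 23.3, 17.7 and 18.3 CPM in the LIN9 KO, 19.5, 16.2 and 15.3 CPM in the SAV1 KO and 14.0, 13.4 and 16.7 CPM in the double KO libraries. All 3 LIN9 KO libraries of the first experiment lay above LIN9 wt, and the second experiment showed no such order. The Itgb3 log2 fold change was 0.56 ± 0.16 (adjusted p = 0.0216) in the first experiment. The Itgb3 values of the second were -0.17 ± 0.17 (adjusted p = 0.553) in LIN9 KO against control and -0.21 ± 0.19 (adjusted p = 0.456) in double KO against SAV1 KO. The Itgb3 call in the first experiment was lost without LIN9 KO replicate 2 and LIN9 wt replicate 3, each left out in turn (adjusted p = 0.0811 and 0.109). The 9 platelet and megakaryocyte markers summed to 13.8 to 16.9 in LIN9 wt and 31.5 to 32.1 in LIN9 KO of the first experiment, and 6.98 to 11.6 in control, 15.8 to 23.3 in LIN9 KO, 11.8 to 18.4 in SAV1 KO and 15.3 to 21.0 in double KO of the second (CPM). Of them, 5 of 9, 2 of 9 and 0 of 9 were called higher in the 3 LIN9 comparisons. Over all genes tested, 11.1%, 12.7% and 11.8% were called higher. Itga2b is not in that marker list, and the part of these markers in the platelet integrin differences was not tested.

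The laminin chains did not move together. In LIN9 KO against control Lama1, Lama5, Lamb1 and Lamc3 were called higher and Lama4 lower. Lamb3, the beta chain of an epithelial laminin, had log2 fold changes of -0.15, 0.32 and 0.29 in the 3 LIN9 comparisons and Lama3, an alpha chain of epithelia, of 0.24, -0.057 and 0.40, with no call for either.

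Lama1, the alpha chain of early embryonic basement membranes, was low and rose in the second experiment. It was at 2.16, 1.58 and 1.04 CPM in the LIN9 wt and 1.84, 3.25 and 3.70 CPM in the LIN9 KO libraries of the first experiment. For Lama1, the second experiment gave 0.664, 1.37 and 0.691 CPM in the control, 5.91, 2.95 and 4.84 CPM in the LIN9 KO, 1.68, 1.35 and 2.39 CPM in the SAV1 KO and 2.04, 7.74 and 4.62 CPM in the double KO libraries. In LIN9 KO no library overlapped the controls, and in double KO replicate 1 lay within the SAV1 KO range. Lama1 differed by 0.88 ± 0.34 (adjusted p = 0.0781) in the first experiment. The Lama1 values of the second were 2.28 ± 0.55 (adjusted p = 0.0026) in LIN9 KO against control and 1.39 ± 0.47 (adjusted p = 0.0314) in double KO against SAV1 KO. Lama1 passed the threshold in the first experiment without LIN9 KO replicate 1 (adjusted p = 0.0299). The Lama1 call in double KO against SAV1 KO was lost without double KO replicates 2 and 3 and SAV1 KO replicates 1 and 2, each left out in turn (adjusted p = 0.312, 0.0599, 0.0912 and 0.112). DESeq2 gave Lama1 an adjusted p of 0.0899 in the last. Lamc3, also low, was at 1.44, 1.48 and 0.727 CPM in the LIN9 wt and 1.52, 3.77 and 1.85 CPM in the LIN9 KO libraries of the first experiment. For Lamc3, the second experiment gave 0.664, 1.03 and 0 CPM in the control, 2.95, 1.97 and 5.59 CPM in the LIN9 KO, 0.336, 1.01 and 0.682 CPM in the SAV1 KO and 2.38, 1.06 and 2.13 CPM in the double KO libraries. The LIN9 KO and control libraries did not overlap, and Lamc3 rose by 2.51 ± 0.65 (adjusted p = 0.0049) there, against 0.97 ± 0.40 (adjusted p = 0.102) in the first experiment and 1.41 ± 0.71 (adjusted p = 0.159) in double KO against SAV1 KO. Lama1, Lamc3, Itgb2 and Itgb7 have a mean count under 10 in the second experiment, so that they are not tested there under the stricter filter.

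Lama5, Lamb1 and Lama4, chains of vascular and cardiac laminins, were called in LIN9 KO against control and in neither of the other 2 LIN9 comparisons. Lama5 was at 94.1, 89.0 and 80.6 CPM in the LIN9 wt and 88.5, 126 and 120.2 CPM in the LIN9 KO libraries of the first experiment. For Lama5, the second experiment gave 103, 83.5 and 91.9 CPM in the control, 157, 186 and 123 CPM in the LIN9 KO, 121, 113 and 122 CPM in the SAV1 KO and 96.7, 152 and 149 CPM in the double KO libraries. LIN9 KO lay above control for Lama5 in the second experiment, with overlap in the other comparisons. Lamb1 was at 379.8, 416 and 317 CPM in the LIN9 wt and 378, 546 and 396 CPM in the LIN9 KO libraries of the first experiment. For Lamb1, the second experiment gave 423, 428 and 427 CPM in the control, 668, 636 and 498 CPM in the LIN9 KO, 476, 481 and 485 CPM in the SAV1 KO and 406, 633 and 647 CPM in the double KO libraries. The Lamb1 libraries likewise lay higher in LIN9 KO than in control and overlapped in the other comparisons. Lama4 was at 341, 403 and 275 CPM in the LIN9 wt and 281, 377 and 223 CPM in the LIN9 KO libraries of the first experiment. For Lama4, the second experiment gave 379, 449 and 413 CPM in the control, 313, 318 and 282 CPM in the LIN9 KO, 420.0, 393 and 379 CPM in the SAV1 KO and 253, 344 and 401 CPM in the double KO libraries. Lama4 lay lower in every LIN9 KO library than in any control of the second experiment, and its groups overlapped elsewhere. Lama5 differed by 0.34 ± 0.13 (adjusted p = 0.0715) in the first experiment. The Lama5 values of the second were 0.74 ± 0.17 (adjusted p = 0.0048) in LIN9 KO against control and 0.16 ± 0.17 (adjusted p = 0.559) in double KO against SAV1 KO. Lama5 passed the threshold in the first experiment without LIN9 KO replicate 1 (adjusted p = 0.0114). Lamb1 differed by 0.25 ± 0.15 (adjusted p = 0.287) in the first experiment. The Lamb1 values of the second were 0.50 ± 0.14 (adjusted p = 0.0168) in LIN9 KO against control and 0.23 ± 0.14 (adjusted p = 0.286) in double KO against SAV1 KO. The Lamb1 call in LIN9 KO against control was lost without LIN9 KO replicates 1 and 2 and control replicates 1 and 2, each left out in turn (adjusted p = 0.0658, 0.0764, 0.052 and 0.0544). Lamb1 passed the threshold in double KO against SAV1 KO without double KO replicate 1 (adjusted p = 0.012). Lama4 differed by -0.21 ± 0.19 (adjusted p = 0.517) in the first experiment. The Lama4 values of the second were -0.44 ± 0.12 (adjusted p = 0.0093) in LIN9 KO against control and -0.26 ± 0.12 (adjusted p = 0.133) in double KO against SAV1 KO. Lama4 passed the threshold in double KO against SAV1 KO without double KO replicate 3 (adjusted p = 0.0112). Lamc1, Lamb2 and Lama2 were called in none, and Lamc1, the most abundant laminin chain, had -0.30 ± 0.23 (adjusted p = 0.426) in the first experiment. The Lamc1 values of the second were -0.25 ± 0.19 (adjusted p = 0.413) in LIN9 KO against control and -0.36 ± 0.19 (adjusted p = 0.227) in double KO against SAV1 KO. Lamc1 passed the threshold in the first experiment without LIN9 KO replicate 2 (adjusted p = 0.0349). Lamc1 passed the threshold in double KO against SAV1 KO without double KO replicate 3 (adjusted p = 0.0082) and with no filter (adjusted p = 0.0089). Lamb2 passed the threshold in the first experiment without LIN9 KO replicate 2 (adjusted p = 0.0287). Lamc1 libraries spread widely within a group, at 364, 536 and 303 CPM in LIN9 KO of the first experiment and 337, 500.5 and 631 CPM in double KO. In the same libraries, genes over 6 kb deviated from genes under 2 kb, relative to the group mean, by 0.039, 0.19 and -0.22 and by -0.17, 0.10 and 0.052 on the log2 scale, low where Lamc1 was low. In LIN9 KO of the second experiment the deviations were -0.14, 0.064 and 0.085 and Lamc1 stood at 560.4, 477 and 396 CPM, in the opposite order. The part of this length-related deviation in the laminin values was not tested.

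**Figure D5:**
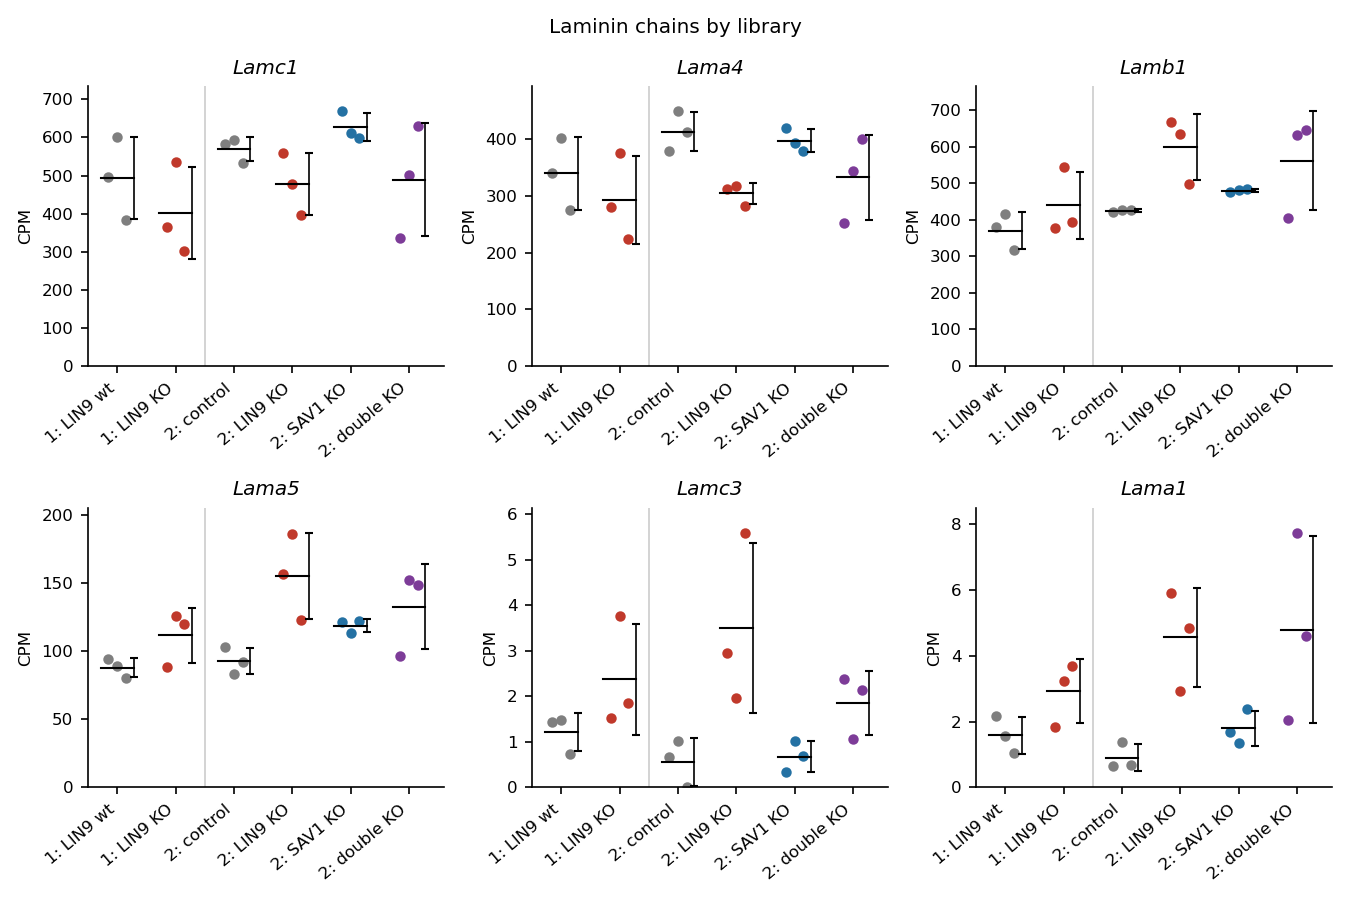
CPM per library (linear axes) of 6 laminin chains, Lamc1, Lama4, Lamb1, Lama5, Lamc3 and Lama1, in the 6 genotype groups, with points for libraries, lines for means and bars for 1 SD. Lama4 lies lower in every LIN9 KO library (313, 318 and 282 CPM) than in any control (379, 449 and 413 CPM) of the second experiment, whereas Lamc1 spans 303 to 536 CPM within LIN9 KO of the first experiment.

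The other members, called in no comparison, were given by their group means (SD, n = 3). Of the integrins with matrix ligands, Itga2 was at 8.12 ± 0.662 and 11.5 ± 2.45 CPM in LIN9 wt and LIN9 KO of the first experiment. Itga2 means of the second were 11.0 ± 2.51 CPM in control, 9.38 ± 3.32 in LIN9 KO, 8.46 ± 1.52 in SAV1 KO and 10.0 ± 1.19 in double KO. Itga10 was at 4.85 ± 0.371 and 5.34 ± 0.744 CPM in LIN9 wt and LIN9 KO of the first experiment. Itga10 means of the second were 5.33 ± 1.32 CPM in control, 8.67 ± 0.400 in LIN9 KO, 5.41 ± 1.69 in SAV1 KO and 8.96 ± 0.700 in double KO. Itga10 means were higher in both groups without LIN9 of the second experiment, without passing the test. Itgb4 was at 3.23 ± 0.722 and 4.20 ± 0.895 CPM in LIN9 wt and LIN9 KO of the first experiment. Itgb4 means of the second were 3.28 ± 1.05 CPM in control, 4.69 ± 0.935 in LIN9 KO, 4.28 ± 1.92 in SAV1 KO and 4.09 ± 1.39 in double KO. For Itga2 the LIN9 KO and LIN9 wt libraries of the first experiment did not overlap, without passing the test, and for Itgb4 the groups overlapped in each LIN9 comparison. Of the leukocyte integrins, Itgad was at 4.61 ± 0.398 and 4.95 ± 0.456 CPM in LIN9 wt and LIN9 KO of the first experiment. Itgad means of the second were 4.96 ± 2.21 CPM in control, 5.02 ± 1.65 in LIN9 KO, 4.74 ± 1.02 in SAV1 KO and 6.06 ± 0.609 in double KO. Itgae was at 4.29 ± 1.37 and 3.32 ± 0.915 CPM in LIN9 wt and LIN9 KO of the first experiment. Itgae means of the second were 4.20 ± 2.29 CPM in control, 3.22 ± 0.773 in LIN9 KO, 4.96 ± 1.09 in SAV1 KO and 5.81 ± 1.72 in double KO. Neither was called. Itgax, a chain of dendritic cells and macrophages, had few reads, at 0.345 ± 0.214 and 0.733 ± 0.262 CPM in LIN9 wt and LIN9 KO of the first experiment. Itgax means of the second were 0.451 ± 0.185 CPM in control, 0.890 ± 1.23 in LIN9 KO, 0.112 ± 0.195 in SAV1 KO and 1.05 ± 0.360 in double KO. No library held more than 9 Itgax reads. Lama2 was at 45.0 ± 8.44 and 43.1 ± 13.9 CPM in LIN9 wt and LIN9 KO of the first experiment. Lama2 means of the second were 63.6 ± 5.53 CPM in control, 55.9 ± 11.8 in LIN9 KO, 61.3 ± 4.19 in SAV1 KO and 68.0 ± 19.1 in double KO. Lamb2, the beta chain of vascular and muscle laminins, was at 131 ± 12.7 and 111 ± 18.8 CPM in LIN9 wt and LIN9 KO of the first experiment. Lamb2 means of the second were 140.0 ± 4.35 CPM in control, 153 ± 15.8 in LIN9 KO, 150.5 ± 5.84 in SAV1 KO and 146 ± 26.1 in double KO. None of these differed past the threshold, and the Lama2 SD was largest in LIN9 KO of the first experiment and in double KO. Lama3 was at 6.55 ± 1.33 and 7.71 ± 1.04 CPM in LIN9 wt and LIN9 KO of the first experiment. Lama3 means of the second were 8.50 ± 1.84 CPM in control, 8.11 ± 3.48 in LIN9 KO, 8.57 ± 0.707 in SAV1 KO and 11.3 ± 0.894 in double KO. Lamb3 was at 8.50 ± 0.673 and 7.64 ± 2.76 CPM in LIN9 wt and LIN9 KO of the first experiment. Lamb3 means of the second were 9.51 ± 3.74 CPM in control, 11.8 ± 2.55 in LIN9 KO, 8.57 ± 0.579 in SAV1 KO and 10.5 ± 1.54 in double KO. For both of these epithelial chains the groups overlapped in the first experiment and in LIN9 KO against control. Lamc1 was at 493 ± 108 and 401 ± 121 CPM in LIN9 wt and LIN9 KO of the first experiment. Lamc1 means of the second were 570.2 ± 32.0 CPM in control, 478 ± 82.0 in LIN9 KO, 626 ± 36.8 in SAV1 KO and 489 ± 148 in double KO.

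The double KO was compared with control to ask what loss of both genes does, a comparison that shares libraries with those above. Of 36 members, 13 (36.1%) were called higher and 2 (5.56%) lower, beside 10.7% and 9.96% of all genes. Genes with over 6 kb of exon had a median log2 fold change 0.236 above genes under 2 kb here. Of these long genes, 15.3% were called higher and 8.39% lower, and 23 tested members are over 6 kb. By class, 9 of 17 matrix-binding integrins, 2 of 6 leukocyte integrins and 2 of 11 laminins were called higher. Itgav rose by 1.29 ± 0.11 (adjusted p = 1.9e-09), Itgb5 by 0.88 ± 0.12 (adjusted p = 3.3e-06), Itga4 by 1.43 ± 0.20 (adjusted p = 1.5e-05) and Itga8 by 0.96 ± 0.15 (adjusted p = 3.2e-05). Lower in double KO were Itgb3, at -0.60 ± 0.18 (adjusted p = 0.0179), and Itga5, at -0.36 ± 0.13 (adjusted p = 0.0483). The Itgb3 call in double KO against control was lost without double KO replicate 2 and control replicate 2, each left out in turn (adjusted p = 0.0622 and 0.0511). The Itga5 call in double KO against control was lost without any 1 of 7 of the 12 libraries, all but LIN9 KO replicates 1, 2 and 3 and SAV1 KO replicates 1 and 2 (adjusted p = 0.0642 to 0.131). With a mean count above 10 the Itga5 call was lost too (adjusted p = 0.0578). DESeq2 gave Itgb3 an adjusted p of 0.0644 and Itga5 one of 0.0656. It did not call Itga7 (adjusted p = 0.0623) or Itga11 (adjusted p = 0.0543) in this comparison either, and it called Itgb1 (adjusted p = 0.031) and Lamb1 (adjusted p = 0.0479), which edgeR did not. Lama1 rose by 2.34 ± 0.54 (adjusted p = 0.0022) and Lama5 by 0.51 ± 0.17 (adjusted p = 0.0446), with overlap of the libraries for Lama5. The Lama5 call in double KO against control was lost without any 1 of 9 of the 12 libraries, all but LIN9 KO replicates 2 and 3 and double KO replicate 1 (adjusted p = 0.0517 to 0.186). It was also lost with the replicate number as a block (adjusted p = 0.0979).

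SAV1 KO was compared with SAV1 wt to ask what loss of the Hippo scaffold does to the same genes. No member was called with LIN9 wt or with LIN9 KO, beside 0.017% and 0.0113% of all genes, and DESeq2 called none either. At an unadjusted p under 0.05 there were 6 and 7 members of 36, that is 16.7% and 19.4%, beside 3.93% and 11.8% of all genes tested. In SAV1 KO against control Itgav was -0.41 ± 0.11 (adjusted p = 0.566) and Itga6 -0.39 ± 0.12 (adjusted p = 0.753), with no overlap between the groups, and a fit of the 6 libraries alone called both (adjusted p = 0.0478 and 0.0222). Itgb8 was 0.61 ± 0.23 (adjusted p = 0.294) in double KO against LIN9 KO. None of these passed the main test. Without the filter on low counts Itgb8 passed in double KO against LIN9 KO (adjusted p = 0.0172). Itga5 passed the threshold in double KO against LIN9 KO without LIN9 KO replicate 3 (adjusted p = 0.0303). For the interaction, which asks whether the effect of LIN9 differs with SAV1, no member was called, 4 had an unadjusted p under 0.05, the share over all genes was 0.0% (1153 genes at an unadjusted p under 0.05), and DESeq2 called no member. The differences between the LIN9 effects on Itgav in SAV1 wt and SAV1 KO ventricles, 0.53 ± 0.16 (adjusted p = 0.68), and on Lama1, -0.89 ± 0.76 (adjusted p = 0.887), were thus not past the threshold.

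Genes that act with integrins were taken as 3 lists. Of the integrin ligands, 8 of 16 were called higher in the first experiment and 10 of 14 in LIN9 KO against control and again in double KO against SAV1 KO, and none was called lower. In the same order, fibroblast and cushion mesenchyme markers were called higher in 5, 5 and 6 of 6. Postn is in both that marker list and the ligand list, so these counts are not separate. Epicardial markers were called higher in 5, 5 and 5 of 6 and macrophage markers in 5, 4 and 5 of 6. The part of these markers in the ligand differences was not tested. Spp1 (osteopontin, a ligand of Itgav and Itga4 integrins) rose by 2.89 ± 0.36 (adjusted p = 0.00092) in the first experiment and by 3.30 ± 0.24 (adjusted p = 7.6e-11) in LIN9 KO against control, and Fn1 (fibronectin, the ligand of Itga5 and Itgav integrins) by 1.03 ± 0.15 (adjusted p = 0.00014) in the latter. Thbs1 rose by 1.30 ± 0.23 (adjusted p = 0.0043) and Tnc, a ligand of Itga9 integrins, by 1.29 ± 0.13 (adjusted p = 9.4e-06) in the first experiment, and Icam1, the ligand of Itgal with Itgb2, by 1.12 ± 0.33 (adjusted p = 0.0272) in LIN9 KO against control. Over all genes tested the shares called were 11.1% higher and 9.78% lower, 12.7% higher and 10.5% lower and 11.8% higher and 11.6% lower in these comparisons, and 50.0%, 71.4% and 71.4% of the ligands were called higher. Integrin adaptors went both ways, with 8 higher and 4 lower of 28 in the first experiment, 7 and 2 in LIN9 KO against control, and 3 and 3 in double KO against SAV1 KO. The adaptor shares were 28.6% higher and 14.3% lower, 25.0% higher and 7.14% lower and 10.7% higher and 10.7% lower, so that the last comparison was near the shares over all genes in both directions. Lower in the first experiment were Tln2, the talin of muscle, at -1.23 ± 0.13 (adjusted p = 1.1e-05), and Itgb1bp2 (melusin), a muscle protein that binds the Itgb1 tail, at -0.56 ± 0.10 (adjusted p = 0.0014). Higher were Lims2, a partner of integrin-linked kinase, at 1.39 ± 0.30 (adjusted p = 0.0068), Fermt3, the kindlin of blood cells, at 0.81 ± 0.17 (adjusted p = 0.0034), and Flna, filamin A, at 0.55 ± 0.13 (adjusted p = 0.0072). Cardiomyocyte markers were lower in the same comparison, in 4 of 6 genes, and macrophage markers higher in 5 of 6, and their part in these adaptor differences was not tested. Basement membrane partners had 3 higher and 4 lower of 28 in the first experiment, 3 and 2 in LIN9 KO against control, and 0 and 4 in double KO against SAV1 KO. These are 10.7% higher and 14.3% lower, 10.7% higher and 7.14% lower and 0% higher and 14.3% lower, and in the first experiment and LIN9 KO against control they did not stand far from the shares over all genes. Nid1, the nidogen that links laminin gamma chains to collagen IV, rose by 0.56 ± 0.17 (adjusted p = 0.0356) in the first experiment and by 0.64 ± 0.20 (adjusted p = 0.0405) in LIN9 KO against control, whereas Bcam, a receptor for Lama5 laminins, differed by -0.76 ± 0.11 (adjusted p = 0.00025) and -0.39 ± 0.11 (adjusted p = 0.0109). The ligand medians of 0.64, 0.64 and 0.87 stood above those of the adaptors (0.17, 0.084 and 0.031) and of the basement membrane partners (0.04, 0.16 and 0.12).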

How the data were processed

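RNA of mouse E13.5 ventricles was sequenced in 18 libraries. The authors aligned reads to mm10 with TopHat 2.1.0 and Bowtie2, normalized samples to the one with the fewest mappable reads and counted reads per Ensembl gene (GRCm38.p6) with summarizeOverlaps; the deposited values used here are these whole-number counts, reduced by the authors to a common depth. Columns of the authors' edgeR comparisons (log2 fold changes, log2 CPM, p-values and FDR) were not used. ChIP samples were not analysed here. Identifiers listed more than once (4, with equal counts) were kept once.

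Genes with a mean count above 1 were scaled by TMM factors, and the robust quasi-likelihood test of edgeR 4.0.16 (R 4.3.3) was applied, with all 12 libraries of the second experiment in 1 fit. P-values were adjusted over all genes tested by Benjamini-Hochberg, with a threshold of 0.05. Levels are counts after TMM scaling to a common library size (CPM). Errors of fold changes are standard errors implied by the test. Each is the absolute log2 fold change divided by the square root of the quasi-likelihood F statistic. Normalizing to the smallest sample keeps depths alike and lowers the precision for genes with few reads.

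Members, classes and gene lists were chosen with earlier results of these data known. Members called in at least 1 comparison are given library by library and the others by group means, except that 1 member and 1 marker gene, counted in the totals, are not reported here, and of each pathway list up to 3 of the largest increases and decreases are named. Of the lists read, endothelial and endocardial markers had 2 of 7, 2 of 7 and 4 of 7 called higher in the 3 LIN9 comparisons, smooth muscle markers 1 of 4, 1 of 4 and 1 of 4 and Schwann and neural crest markers 0 of 2, 0 of 2 and 0 of 2. Called lower in the same comparisons were 0, 1 and 1 endothelial and endocardial, 0, 1 and 1 smooth muscle and 0, 1 and 0 Schwann and neural crest markers. Of all genes tested, 11.1%, 12.7% and 11.8% were called higher and 9.78%, 10.5% and 11.6% lower.

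Alternatives were DESeq2 1.42.0, 2 other normalizations, no filter, a mean count above 10, a replicate block, fits of 6 libraries and each library left out. Same-numbered libraries deviated together in LIN9 KO against control of the second experiment (correlations 0.6, 0.217 and 0.313), as a hint from the data and not from the labels. The analysis was tested on simulated data.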

Additional observations from a re-analysis of the deposited data

Results flagged for a closer look

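Itga3, a laminin receptor chain, moved in opposite directions with the same deletion, and the libraries did not overlap in any of the comparisons concerned. Loss of LIN9 gave a log2 fold change of 0.43 with SAV1 wt and of -0.45 with SAV1 KO. Loss of SAV1 gave 0.46 with LIN9 wt and -0.41 with LIN9 KO. The difference between the LIN9 effects, tested as an interaction over all genes in edgeR's quasi-likelihood test, was -0.88 ± 0.19 (adjusted p = 0.44) and was therefore not past the threshold, and the SAV1 effects themselves were not called. In the first experiment the Itga3 difference was 0.10 ± 0.11 (adjusted p = 0.566) in edgeR.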

How the results depend on the processing

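Of the calls of the 3 LIN9 comparisons, 7 of 10, 13 of 18 and 10 of 16 held in every alternative in which the gene was tested, among them Itgav, Itgb5, Itga4 and Itga8 in all 3, and in double KO against control 9 of 15 held. With the replicate number as a block, 18 members were called in the first experiment in place of 10, where same-numbered libraries do not all deviate together (correlations 0.181, 0.0422 and 0.166, with 4 of 6 libraries correlating best with their own number). The 8 gained were Itga1, Itga2, Itga5, Itga6, Itga9, Itgb1, Lamc1 and Lamc3. With no filter 15 were called there, with Itga2, Itga9, Lama1, Lama5 and Lamc3 gained. In LIN9 KO against control, where they do, the block left 17 of 18 calls and changed no call but Itgb7. In the other comparisons the numbers did not pass the same check, and 0 to 4 of 6 libraries correlated best with their own number. There the block gained Itga10 in double KO against SAV1 KO, and in double KO against control it gained Itga10 and Itgb1 and lost Lama5. The median log2 fold change of the leukocyte integrins, a class of few reads, was 1.058, 1.235 and 0.908 in the 3 LIN9 comparisons. It was 0.114 in double KO against LIN9 KO and 1.34 in double KO against control. With a mean count above 10, where fewer genes are tested, these medians went to 0.59, 0.014, 0.37, 0.28 and 0.49 in that order. The second Itgam row, with 10 pooled reads in LIN9 KO and 2 in LIN9 wt, passed the main filter of the first experiment only through LIN9 KO. It could therefore only raise that leukocyte median. With no filter the median went to 0.93 in LIN9 KO against control and 1.46 in double KO against SAV1 KO. The laminin median in LIN9 KO against control was -0.052 with a mean count above 10. With each library left out, the leukocyte median ranged over 0.65 to 1.25, 0.89 to 1.54 and 0.77 to 1.09 in the 3 LIN9 comparisons and 1.08 to 1.67 in double KO against control, the matrix-binding median over 0.42 to 0.65, 0.46 to 0.65 and 0.64 to 0.89, and the laminin median over -0.093 to 0.23 in double KO against LIN9 KO and 0.10 to 0.38 in double KO against control. Members called in the SAV1 comparisons went from 0 to 2 in a fit of 6 libraries (LIN9 wt), to 2 with no filter and 0 to 1 with a library left out (LIN9 KO), and in the interaction to 1 with no filter and 0 to 1 with a library left out, in both cases LIN9 KO replicate 3. The Itga5 difference in LIN9 KO against control (-0.10) lay between -0.31 and 0.043 with a library left out, reversed without that library. Over all genes, the first experiment gave 2722 calls without LIN9 wt replicate 3 in place of 4131. SAV1 KO against control gave 3 calls, 22 with no filter, 31 in a fit of 6 libraries and 0 to 7 with a library left out. Double KO against LIN9 KO gave 2 calls, 77 in DESeq2, 309 with no filter, 84 with the replicate block and 0 to 377 with a library left out. The interaction gave 0 calls, 17 with no filter and 0 to 64 with a library left out. The causes of these changes were not tested. Depth limits Itgb2, Itgb7, Lama1 and Lamc3, with mean counts of 6.42, 2.33, 8.75 and 4.75 in the second experiment.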
